A study of Mus musculus with 8 samples.

Results

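The genes described here are 34 direct or well-known targets that the transcription factor p53 activates. They were taken by symbol from an RNA-seq table of 23361 genes, and all 34 were found. Expression was compared between 5 cancers of the gastric squamous-columnar junction (SCJ), where the squamous forestomach meets the glandular stomach, and the SCJ of 3 control stomachs. The cancers, labelled Trp53-/-Rb1-/-, came from Lgr5eGFP-Ires-CreERT2 Trp53loxP/loxP Rb1loxP/loxP Ai9 mice after tamoxifen, and the controls were wild-type stomachs paired by age. In these mice the Cre recombinase is expressed from the Lgr5 locus of stem cells, removes floxed Trp53 and Rb1, and switches on the red reporter tdTomato, which was used to outline the tumors at dissection. Control tissue therefore differed from the cancers in alleles and tissue makeup together, and these cannot be told apart. The controls were separate stomachs, while the sources used here do not say whether each tumor came from a separate mouse, so p-values measure only the spread between these samples.

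p53 is a tetramer that binds paired copies of a short half-site in DNA and raises transcription when DNA is damaged or cells are stressed. Its targets halt the cell cycle, feed back on p53, start or restrain cell death, repair DNA, and adjust redox state and nutrient sensing. Many of them are also driven by other factors, including the relative p63 in squamous epithelium and stress pathways that need no p53.

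Promoter sequence was examined first, because p53 acts on its targets through such elements. RefSeq windows (GRCm38.p6, the mm10 sequence), each with 250 bases before and 50 bases after an annotated start, were matched to 27 of the 34 genes and gave 41 windows. The p53 half-site consensus, of 10 bases, was searched by name on both strands. It lay in 9 of the 41 windows (22%), against 8.36% of all 32851 windows. By gene, it was found in 8 of 27 genes (29.6%), against 9.55% of all genes with a window. A complete element of 20 bases, made of 2 abutting half-sites with at most 1 mismatch, was present in 29 of all windows (0.0883%), and 2 of these belonged to Ccng1 and Rps27l. A match is a description of the letters, not a binding site. The E2F motifs TTTCGCGC, TTTGGCGC, TTTCCCGC and TTTGCCGC were in 0 of the 41 windows and in 2.27% of all windows. The bases before the start are printed for Ccng1 and Rps27l, which hold a complete element, without those that any GENCODE exon covers. Each reads 5′ to 3′ along the gene's own strand, and capitals mark the complete element.
Ccng1: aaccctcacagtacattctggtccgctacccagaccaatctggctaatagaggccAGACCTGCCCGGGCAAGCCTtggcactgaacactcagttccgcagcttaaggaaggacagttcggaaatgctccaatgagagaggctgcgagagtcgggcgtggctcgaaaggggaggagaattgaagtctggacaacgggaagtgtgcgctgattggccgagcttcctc
Rps27l: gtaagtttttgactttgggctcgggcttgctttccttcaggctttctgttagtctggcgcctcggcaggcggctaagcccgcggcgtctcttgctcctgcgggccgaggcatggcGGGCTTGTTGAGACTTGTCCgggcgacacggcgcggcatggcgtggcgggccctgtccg

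The Ccng1 sequence is chr11:40755312-40755536, minus strand. Its element occupies chr11:40755462-40755481, begins 195 bases before the start, lies outside the annotated gene, and departs from the consensus at position 5, counted from 1 at its 5′ end. The Rps27l sequence is chr9:66946181-66946354, plus strand, before a second RefSeq start that is 1789 bases from the 5′ end of the gene. Its element, chr9:66946296-66946315, lies inside the gene with no annotated exon over it, and the mismatch is at position 10. A further exact half-site of this sequence, which begins 210 bases before the start, is left in lower case. The exact half-site of Gadd45a, chr6:67037438-67037447, begins 40 bases before the RefSeq start, and the first exon of a longer GENCODE transcript of Gadd45a covers it. Exact half-sites were also in windows of Aen, Ei24, Polk, Ppm1d and Sesn1.

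Levels are the deposited FPKM, that is, sequenced fragments relative to transcript length and library total, rounded to whole numbers. Depth is unknown, so no counting interval is given. Differences are log2 fold changes of cancer over control on the log2(FPKM + 1) scale, which understates changes of low genes. The tests are limma fits over the 14357 genes that reached 1 FPKM in 3 or more samples, adjusted by Benjamini-Hochberg. FPKM summed to between 403569 and 573858 in the cancers and to between 887141 and 992550 in the controls. The 10 most abundant genes held 11.1% to 19.6% of that sum in the cancers and 39.3% to 44.3% in the controls, so the choice of scaling bears on every direction given here. Marker genes of cell types differed too. The summed FPKM of 4 pit mucous genes was 689 to 65598 in the cancers and 143964 to 211954 in the controls, that of 4 endocrine genes was 7722 to 17143 and 122 to 184. Of 5 hepatocyte genes, Ahsg was at 492 to 2886 in the cancers and 1 to 2 in the controls, and Alb was at 16, 18, 58, 1 and 266 in cancers 1 to 5 and at 1 in each control. Lymphocyte markers summed to 130 in cancer 1 and to at most 5 elsewhere. Smooth muscle markers ran from 23 in cancer 1 to 1230 in cancer 2, beside 239 to 401 in the controls. The 4 chief cell markers summed to 28904 in control 1 and to 64 and 88 in controls 2 and 3, a gap made by Pgc, whereas Pga5 was at 63, 47 and 62 and Bhlha15 at 8, 17 and 26. Macrophage markers summed to 89 to 230 in the cancers and 26 to 35 in the controls, and endothelial markers to 11 to 37 and 4 to 8. The part of these differences in the targets' levels was not tested.

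The deleted genes were checked first. Trp53 stood at 12, 22, 12, 30 and 12 FPKM in cancers 1 to 5 and at 16, 17 and 19 in the controls. Cancers 2 and 4 lay above every control and the other 3 below, with a log2 fold change of -0.08 (SE 0.33, limma adjusted p = 0.87) that turned positive with TPM and with 3 other scalings. A value over the whole gene does not resolve the floxed exons, so it does not show the deletion. Rb1, at 4 to 6 in the cancers and 9 to 10 in the controls, differed by -0.90 (SE 0.16, limma adjusted p = 0.0059), but by -0.05 (limma adjusted p = 0.84) with TPM. Trp63, which encodes p63, was listed at 0 in cancers 1 and 2 and stood at 4, 21 and 4 FPKM in cancers 3 to 5, beside 7, 11 and 9 in the controls.

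Of the 34 targets, 33 passed the expression filter. Eda2r, a receptor of the tumor necrosis factor family, was listed at 0 in all 8 samples. Among the 33, 13 passed the threshold (39.4%), beside 34.5% of all genes tested. Of these, 3 rose in the cancers (Trp53inp1, Plk2 and Gadd45a; all-gene share 16.2%) and 10 fell (Perp, Epha2, Plk3, Ccng1, Ak1, Ephx1, Cd82, Ei24, Polk and Triap1; all-gene share 18.3%). The overall share was thus near the background and is not a result about these genes. Their median log2 fold change was -0.31, beside -0.04 for all genes. The groups did not overlap for 13 targets, 3 with every cancer above every control and 10 with every cancer below, beside 34.1% of all genes (14.4% above and 19.8% below). In bulk tissue, fewer cells of a type and less RNA per cell cannot be told apart.

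**Figure D1:**
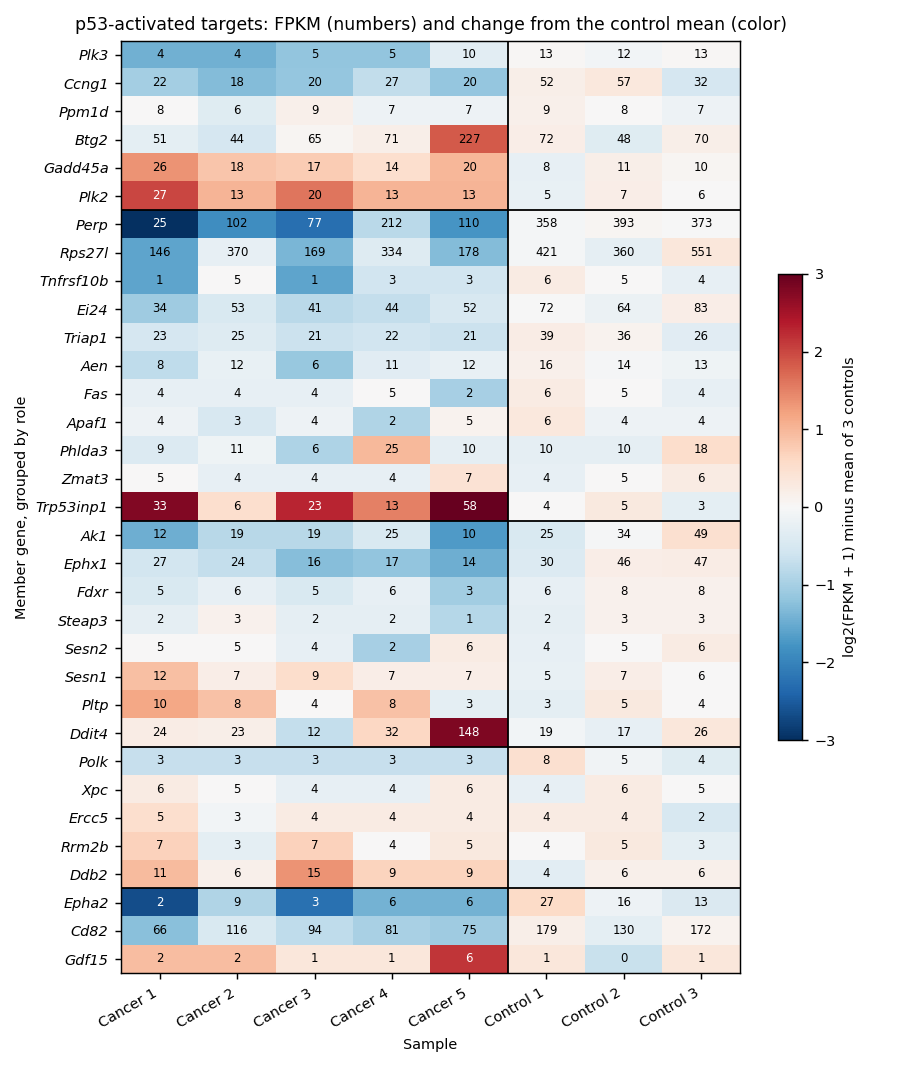
FPKM of the 33 tested targets in each of the 8 samples (numbers in the cells), ordered by role with lines between roles. Color gives log2(FPKM + 1) minus the mean of the 3 controls, from blue (lower) to red (higher); Trp53inp1 and Plk2 are red and Perp and Epha2 are blue across all 5 cancers, and Ddit4 and Btg2 stand out in cancer 5 only.

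Scaling changed the split of these calls. When each library was rescaled to the same sum (TPM), the median of all genes moved to 0.81, and 11 targets passed the threshold as higher and 0 as lower, beside 50% and 3.68% of all genes. When libraries were rescaled without their 50 most abundant genes, an alternative chosen after seeing the data, 4 targets were higher and 2 lower, beside 21.7% and 9.40% of all genes. The distance between the targets' median and that of all genes was -0.27 with FPKM, -0.32 with TPM and -0.26 with quantile normalization. It was -0.29 with median-ratio factors and -0.28 without the 50 genes. With both FPKM and TPM 21 of the 33 lay below the median of all genes. TPM, median-ratio factors and the rescaling without the 50 genes each multiply a library by a single factor, which shifts its genes nearly alike. With those scalings the distance and the count could hardly change, so their steadiness is no support. Over these 5 scalings 18 targets kept their sign, 11 as higher and 7 as lower, and the sign of 15 depended on the scaling. Plk2, Gadd45a and Trp53inp1 passed the threshold as higher in all 5, and no target passed as lower in all 5. The share of all genes passing in all 5 was not computed. With TPM 50% of all genes passed as higher and 3.68% as lower, so that scaling alone bears on this contrast. Perp and Epha2 passed as lower in 4, missing the threshold with TPM.

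**Figure D2:**
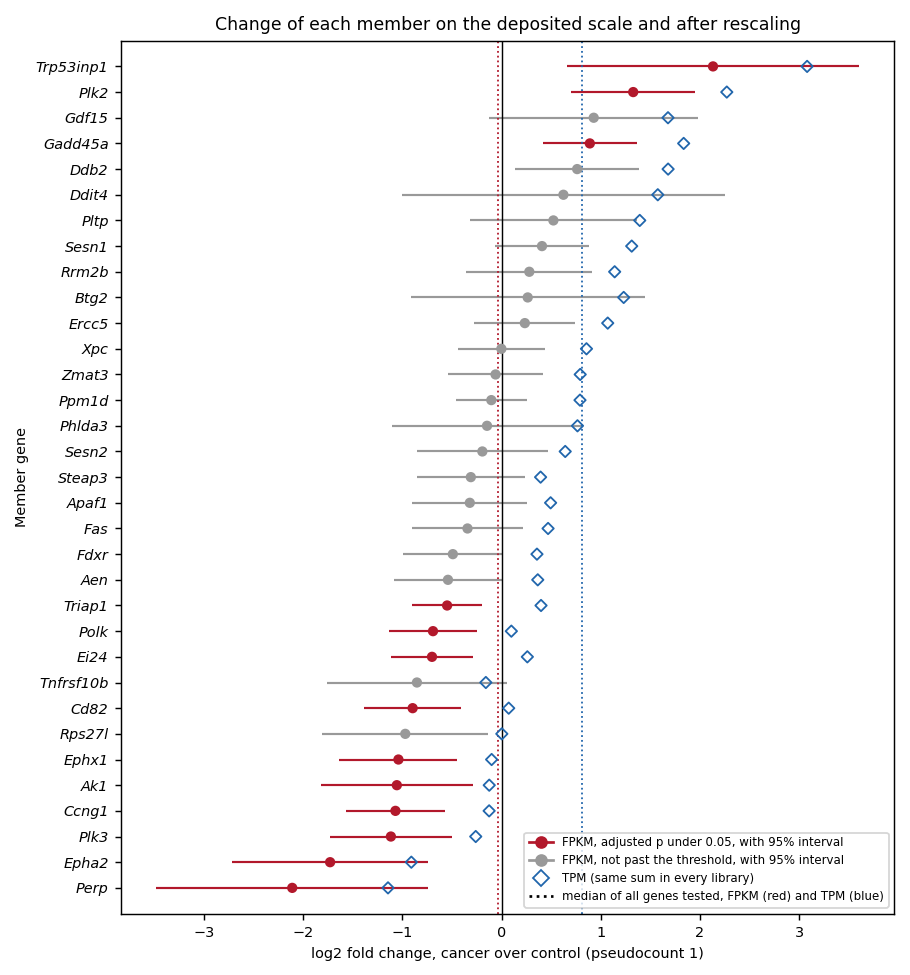
Log2 fold change (x axis, cancer over control) of the 33 tested targets, with circles and 95% intervals for FPKM and open diamonds for TPM. Red circles are past the threshold; dotted lines mark the all-gene median at -0.04 with FPKM and 0.81 with TPM, and 7 targets, from Perp to Ephx1 with Tnfrsf10b, stay below 0 on both.

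The calls also depended on single libraries, since each control is 1 of 3. Without control 1, 2 or 3 the number of targets past the threshold was 3, 5 or 6, and without cancer 3 it was 8. The share of all genes that passed fell as well, to 17.5%, 18.6% and 19.8% without these controls and to 24.4% without cancer 3. Without control 1, 1 target was higher and 2 were lower. Without cancer 5 the median log2 fold change was -0.18. Plk2 (chr13:110395044-110400843, mm10) and Ccng1 (chr11:40748552-40755286) passed the threshold whichever single library was left out. An exact permutation test was also run (two-sided, 56 arrangements of 5 and 3 samples). This permutation test gave p = 0.0179, the smallest it can give, for 9 of the 33 targets tested, all among the 13. It gave the same p for 23.3% of all genes tested. Adjusted over all genes that value was 0.0767, so 0 genes passed by this test, whereas 4800 had an unadjusted permutation p under 0.05 and 4948 passed by limma.

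Among the 6 targets that arrest the cell cycle or feed back on p53, 2 rose and 2 fell. Here and in the role groups that follow, counts are of calls with FPKM, beside 16.2% higher and 18.3% lower of all genes tested. Groups this small carry no result of their own. Plk2, a polo-like kinase of the centrosome and of stress responses, stood at 27, 13, 20, 13 and 13 FPKM in cancers 1 to 5 and at 5, 7 and 6 in the controls. Every cancer lay above every control. The log2 fold change was 1.33 (SE 0.27, limma adjusted p = 0.010), which is 2.51-fold, and 2.27 with TPM. Gadd45a, a stress-induced protein that binds PCNA and p21 (locus in the deposited table chr6:67035096-67080652, mm10), stood at 26, 18, 17, 14 and 20 FPKM in the cancers and at 8, 11 and 10 in the controls. Its groups did not overlap either, and the log2 fold change was 0.89 (SE 0.20, limma adjusted p = 0.015). Without control 1 the adjusted p was 0.064. Gadd45a overlaps exons of E230016M11Rik on the opposite strand, and the strand setting of the counting is not given in the sources used here.

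Ccng1, which encodes cyclin G1, a regulator of the p53 inhibitor Mdm2, moved the other way. It stood at 22, 18, 20, 27 and 20 FPKM in the cancers and at 52, 57 and 32 in the controls. The lowest control lay above the highest cancer. Ccng1 was 2.10-fold lower (log2 fold change -1.07, SE 0.22, limma adjusted p = 0.0097). With TPM the value was -0.13, 0.94 below the all-gene median, and the call was lost. The call was also lost with quantile normalization (limma adjusted p = 0.054) and without the 50 most abundant genes (limma adjusted p = 0.056). Plk3, a polo-like kinase of the stress response, stood at 4, 4, 5, 5 and 10 FPKM in the cancers and at 13, 12 and 13 in the controls. Cancer 5 was closest to the controls, and the groups did not overlap. The log2 fold change was -1.12 (SE 0.27, limma adjusted p = 0.017), with an adjusted p of 0.063, 0.053 and 0.059 without controls 1, 2 and 3. With TPM it was -0.26. Exons of Plk3 overlap Tctex1d4 on the opposite strand.

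Btg2 and Ppm1d did not pass with FPKM. Btg2, an antiproliferative partner of mRNA deadenylation, stood at 51, 44, 65, 71 and 227 FPKM in the cancers and at 72, 48 and 70 in the controls. Cancer 5 was far above the rest and the other 4 lay within or near the control range (log2 fold change 0.26, SE 0.51, limma adjusted p = 0.70), and without cancer 5 the value was -0.13. Ppm1d, the phosphatase Wip1 that shuts p53 signaling down, was at 6 to 9 in the cancers and 7 to 9 in the controls (log2 fold change -0.10, 95% interval -0.46 to 0.26, turning to 0.79 with TPM, limma adjusted p = 0.033).

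**Figure D3:**
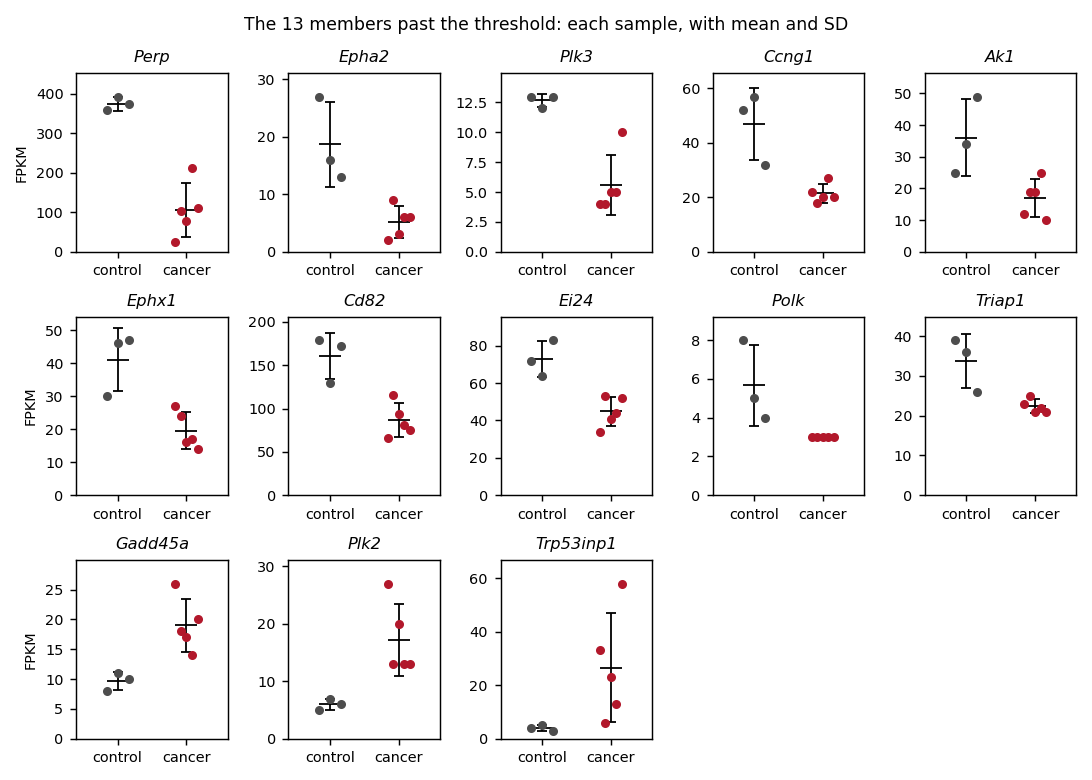
FPKM (linear y axis from 0, one panel per gene) of the 13 targets past the threshold; points are samples, and bars give the mean and SD of 3 controls and 5 cancers. The groups are apart for 12 of the 13, and for Ak1 the highest cancer equals the lowest control at 25.

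Of the 11 cell death and survival targets tested, 1 rose and 3 fell. Trp53inp1, a scaffold of p53 phosphorylation and autophagy (chr4:11156441-11174377, mm10), stood at 33, 6, 23, 13 and 58 FPKM in the cancers and at 4, 5 and 3 in the controls. All 5 cancers lay above the controls, cancer 2 by a single unit. The log2 fold change, 2.13 (SE 0.64, limma adjusted p = 0.036), was the largest rise among the targets and amounted to 4.38-fold. The adjusted p was 0.073 without cancer 1, 0.079 without cancer 3 and 0.104, 0.082 and 0.115 without controls 1, 2 and 3.

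Perp, a tetraspan membrane protein of desmosomes that is a target of both p53 and p63, showed the largest fall. It stood at 25, 102, 77, 212 and 110 FPKM in the cancers and at 358, 393 and 373 in the controls. No cancer reached the control range, and the cancers spread over 3.03 log2 units against 0.13 in the controls. Perp was 4.32-fold lower, with a log2 fold change of -2.11 (95% interval -3.48 to -0.74, SE 0.59, limma adjusted p = 0.029). The adjusted p was 0.067 without cancer 3 and 0.086, 0.088 and 0.086 without controls 1, 2 and 3, and with TPM the value was -1.15 (limma adjusted p = 0.075). Perp lies at chr10:18845071-18857072 (mm10). Markers of squamous epithelium moved with it: the sum over 6 genes was 0, 26, 404, 1844 and 663 from cancer 1 to cancer 5, against 2147, 3565 and 3247 in the controls, with all 6 at 0 in cancer 1. Single markers did not all follow the sum: in cancer 4 the basal keratin Krt5 was at 574 and Krt14 at 403, above the controls at 128 to 203 and 100 to 143, and Ivl was at 9 in cancer 2 and 3 to 4 in the controls. The 5 parietal cell markers gave sums of 0, 1512, 212, 2636 and 289 in the same order, and 6647, 12462 and 10626 in the controls, again with all 5 at 0 in cancer 1. Among the cancers, cancer 1 was lowest and cancer 4 highest for Perp and for both of these marker sums. The pit mucous sum was also lowest in cancer 1, at 689, but highest in cancer 2, at 65598, against 43934 in cancer 4. Cancer 2 was below cancer 3 for the squamous sum and above it for Perp. Their part in the difference was not tested. Without cancers 2 and 4, the cancers with the most parietal and pit marker RNA, 14 targets passed, 4 higher and 10 lower, beside 48.0% of all genes. These samples were left out after the data had been seen.

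**Figure D4:**
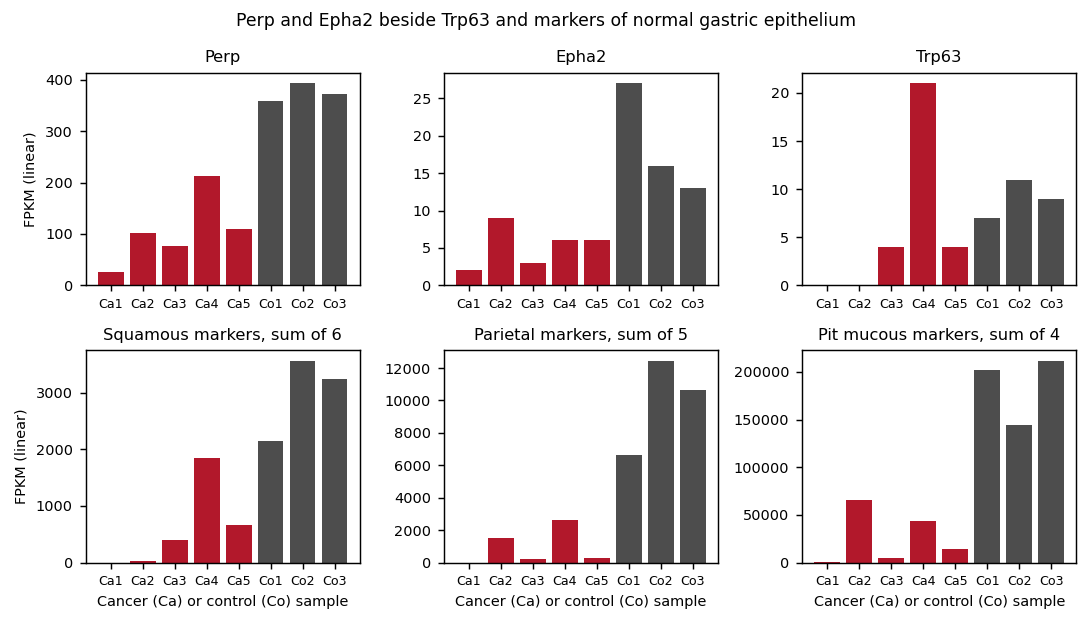
FPKM on linear axes in the 5 cancers (red, Ca) and 3 controls (grey, Co) for Perp, Epha2, Trp63 and the summed markers of squamous, parietal and pit mucous cells. Perp, squamous and parietal bars are lowest in cancer 1 and, among the cancers, highest in cancer 4. Epha2 and pit mucous bars are, among the cancers, highest in cancer 2.

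Ei24, a membrane protein of the endoplasmic reticulum with a role in autophagy, stood at 34, 53, 41, 44 and 52 FPKM in the cancers and at 72, 64 and 83 in the controls. The groups did not overlap, and the log2 fold change was -0.70 (SE 0.18, limma adjusted p = 0.021), but it was 0.26 with TPM, which is 0.55 below the all-gene median. The adjusted p was 0.068 without control 1 and 0.078 without control 3, and exons of Ei24 overlap Gm26787 on the opposite strand. Triap1, a small mitochondrial protein that protects cells from apoptosis, stood at 23, 25, 21, 22 and 21 FPKM in the cancers and at 39, 36 and 26 in the controls. Control 3 was 1 unit above the highest cancer. The log2 fold change was -0.55 (SE 0.15, limma adjusted p = 0.029), turning to 0.40 with TPM, and the adjusted p was 0.062 without cancer 3 and 0.109 and 0.108 without controls 1 and 2.

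The other 7 did not pass. Rps27l, a ribosomal protein homolog with the second complete promoter element, stood at 146, 370, 169, 334 and 178 FPKM in the cancers and at 421, 360 and 551 in the controls. Cancers 2 and 4 were near the lowest control and the other 3 well below it (log2 fold change -0.97, SE 0.36, limma adjusted p = 0.069, turning to 0.002 with TPM). Rps27l passed as lower without cancer 2 (limma adjusted p = 0.033) or without cancer 4 (limma adjusted p = 0.0498), the cancers with its highest levels. The related gene Rps27 shares 198 of 256 aligned coding bases (77.3%) and was listed at 66 in cancer 3 and at 2 to 7 elsewhere. How reads were divided between Rps27l and Rps27 was not tested. Tnfrsf10b, the death receptor for TRAIL, stood at 1, 5, 1, 3 and 3 FPKM in the cancers and at 6, 5 and 4 in the controls (log2 fold change -0.85, SE 0.39, limma adjusted p = 0.12). It passed as lower without cancer 2, its highest cancer (log2 fold change -1.07, limma adjusted p = 0.045). Aen, a nuclease of apoptosis, was at 6 to 12 in the cancers and 13 to 16 in the controls, without overlap, and yet missed the threshold (log2 fold change -0.54, SE 0.23, limma adjusted p = 0.10, turning to 0.36 with TPM).

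Fas, the death receptor, was at 4, 4, 4, 5 and 2 in the cancers and at 6, 5 and 4 in the controls. Apaf1, the core of the apoptosome, was at 2 to 5 and 4 to 6, and Zmat3, an RNA-binding splicing regulator, at 4 to 7 and 4 to 6. Phlda3, which restrains Akt, was at 9, 11, 6, 25 and 10 in the cancers and at 10, 10 and 18 in the controls. The log2 fold changes of these 4 lay between -0.34 and -0.06, were positive with TPM for all 4, and their groups overlapped. Levels this low move in large steps when rounded to whole FPKM.

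Among the 8 targets of nutrient sensing, redox state and metabolism, 2 fell and 0 rose. Ephx1, the microsomal epoxide hydrolase, stood at 27, 24, 16, 17 and 14 FPKM in the cancers and at 30, 46 and 47 in the controls. Control 1 was just above cancer 1, without overlap. The log2 fold change was -1.04 (SE 0.26, limma adjusted p = 0.019), with an adjusted p of 0.075 and 0.074 without controls 2 and 3, and -0.10 with TPM. Exons of Ephx1 overlap Gm36961 on the same strand. Ak1, the cytosolic adenylate kinase, stood at 12, 19, 19, 25 and 10 FPKM in the cancers and at 25, 34 and 49 in the controls. Cancer 4 equalled control 1. Its call (log2 fold change -1.06, SE 0.33, limma adjusted p = 0.043) was kept without cancer 4 but was lost without any other single library (adjusted p 0.055 to 0.146), and the value with TPM was -0.12.

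Ddit4, an inhibitor of the kinase complex mTORC1 that also answers to hypoxia and glucocorticoids, stood at 24, 23, 12, 32 and 148 FPKM in the cancers and at 19, 17 and 26 in the controls. Only cancer 5 was far from the controls, and the difference of 0.62 (SE 0.70, limma adjusted p = 0.51) was within the spread. Without cancer 5 it was 0.078, and without cancer 3 it was 0.96. Sesn1 and Sesn2, sestrins that restrain mTORC1, were at 7 to 12 and 2 to 6 in the cancers and at 5 to 7 and 4 to 6 in the controls. Sesn1 had a log2 fold change of 0.41 (SE 0.21, limma adjusted p = 0.16), or 1.31 with TPM (limma adjusted p = 0.0093), and Sesn2 one of -0.19, turning to 0.64 with TPM. Fdxr, the mitochondrial ferredoxin reductase, was at 3 to 6 and 6 to 8 (log2 fold change -0.49, limma adjusted p = 0.11, turning to 0.36 with TPM). Steap3, an iron reductase of endosomes, was at 1 to 3 and 2 to 3. Pltp, the phospholipid transfer protein, was at 10, 8, 4, 8 and 3 in the cancers and at 3, 5 and 4 in the controls (log2 fold change 0.52, limma adjusted p = 0.28, and with TPM 1.39, 0.017), and its exons overlap Ctsa on the opposite strand.

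Among the 5 targets of DNA repair and nucleotide supply, 1 fell and 0 rose. Polk, a translesion DNA polymerase, was at 3 in all 5 cancers and at 8, 5 and 4 in the controls. The groups were 1 unit apart at the nearest, the step of the rounding. The log2 fold change was -0.69 (SE 0.19, limma adjusted p = 0.029), turning to 0.10 with TPM, and the adjusted p was 0.059 without cancer 3 and 0.068 and 0.070 without controls 1 and 2.

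Ddb2, which recognizes ultraviolet damage in nucleotide excision repair, stood at 11, 6, 15, 9 and 9 FPKM in the cancers and at 4, 6 and 6 in the controls. Cancer 2 equalled the highest controls and the other 4 lay above (log2 fold change 0.76, SE 0.27, limma adjusted p = 0.060). It passed the threshold with TPM and in 2 other scalings, and also without cancer 2, its lowest cancer (limma adjusted p = 0.023). Exons of Ddb2 overlap Acp2 on the opposite strand. Xpc and Ercc5, the damage sensor and an endonuclease of the same pathway, were at 4 to 6 and 3 to 5 in the cancers and at 4 to 6 and 2 to 4 in the controls. Rrm2b, the p53-inducible subunit of ribonucleotide reductase, was at 3 to 7 and 3 to 5, and overlaps Gm49085 on the opposite strand. The 95% intervals were -0.44 to 0.43 for Xpc, -0.27 to 0.74 for Ercc5 and -0.36 to 0.91 for Rrm2b, and none passed. With TPM all 3 passed as higher: Xpc turned to 0.86 (limma adjusted p = 0.035), Ercc5 was 1.07 (0.024) and Rrm2b 1.14 (0.039), beside an all-gene median of 0.81.

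Of the 3 secreted and surface proteins, 2 fell. Epha2, a receptor tyrosine kinase for ephrin-A ligands in epithelia (chr4:141301221-141329384, mm10), stood at 2, 9, 3, 6 and 6 FPKM in the cancers and at 27, 16 and 13 in the controls. Every cancer was below every control. Epha2 was 3.32-fold lower (log2 fold change -1.73, SE 0.42, limma adjusted p = 0.019), with an adjusted p of 0.079 without control 1 and 0.055 without control 2, and with TPM the value was -0.91 (limma adjusted p = 0.076). Cd82, a tetraspanin known as a metastasis suppressor, stood at 66, 116, 94, 81 and 75 FPKM in the cancers and at 179, 130 and 172 in the controls. The groups did not overlap, and the log2 fold change was -0.90 (SE 0.21, limma adjusted p = 0.017), turning to 0.07 with TPM, which is 0.74 below the all-gene median. The adjusted p was 0.069 without control 1 and 0.062 without control 3. Gdf15, a stress cytokine of the transforming growth factor family, was at 2, 2, 1, 1 and 6 in the cancers and at 1, 0 and 1 in the controls (log2 fold change 0.93, SE 0.46, limma adjusted p = 0.15, and with TPM 1.68, 0.032).

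The cancers differed most among themselves in 6 targets. The range over the 5 cancers, on the log2(FPKM + 1) scale, was 3.52 for Ddit4, 3.08 for Trp53inp1, 3.03 for Perp, 2.34 for Btg2, 1.89 for Phlda3 and 1.81 for Gdf15. Cancer 5 had the highest level of the cancers in Ddit4, Trp53inp1, Btg2 and Gdf15, and cancer 4 in Perp and Phlda3. Over the 33 targets, cancer 5 was highest alone among the cancers in 8, cancer 2 in 7, cancer 1 in 6, cancer 4 in 5 and cancer 3 in 2. Cancer 5 was also lowest alone in 6, cancer 2 in 7, cancer 1 in 5, and cancers 3 and 4 in 3 each. The hepatocyte genes Fga, Fgg and Apoh were listed at 0 in 7 samples but at 65, 93 and 21 FPKM in cancer 5, and the part of that material in the levels of cancer 5 was not tested. The mean level of the 33, in log2(FPKM + 1), was 3.75 in cancer 5 and 3.46 to 3.62 in the remaining cancers. It ran from 3.79 to 3.81 among controls. The median level overlapped: 3.32, 3, 3, 3.17 and 3.32 in cancers 1 to 5, and 3.17, 3.17 and 3 in the controls. These levels use FPKM. With TPM the median log2 fold change of the targets was 0.49, beside 0.81 for all genes.

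**Figure D5:**
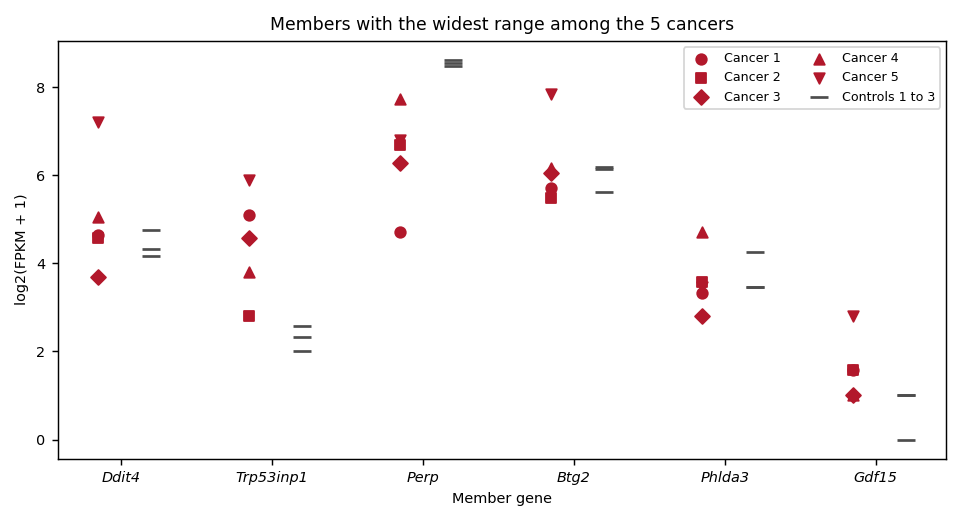
Level of the 6 targets with the widest range among cancers, with 1 point per cancer and per control on a log2(FPKM + 1) axis. Cancer 5 is apart from the other cancers for Ddit4 and Btg2, while for Perp all controls lie together above all cancers.

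Other genes of the p53 pathway were listed for comparison. Of 29, 28 were tested, 9 rose and 3 fell, with a median log2 fold change of 0.30. That is 32.1% higher and 10.7% lower, beside 16.2% and 18.3% of all genes tested. Of 12 upstream genes and regulators 3 rose and 0 fell, and of 16 further targets 6 rose and 3 fell. With TPM 17 rose and 0 fell, beside 50% and 3.68% of all genes. Without the 50 most abundant genes 11 rose and 3 fell, beside 21.7% and 9.40% of all genes. The number past the threshold, 12, was 6 without control 1, 2 or 3, beside 17.5%, 18.6% and 19.8% of all genes. It was 7 without cancer 3, beside 24.4%, and 15 without cancers 2 and 4, beside 48.0%. Cdkn2a, which encodes p16 and the p53 activator p19Arf, was listed at 65, 58, 85, 29 and 62 in the cancers and at 0 in the 3 controls.

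Cdkn1a, which encodes the cell cycle inhibitor p21, stood at 18, 81, 18, 54 and 90 FPKM in the cancers and at 182, 128 and 190 in the controls. No cancer reached the controls (log2 fold change -1.94, SE 0.60, limma adjusted p = 0.041). The adjusted p was 0.067, 0.076 and 0.057 without cancers 1, 3 and 4, 0.120, 0.084 and 0.120 without controls 1, 2 and 3, and 0.13 with TPM. Mdm2, the ubiquitin ligase of p53, was at 21, 11, 20, 13 and 20 in the cancers and at 13, 13 and 12 in the controls. Cancers 1, 3 and 5 were above the controls and cancer 2 below, with a log2 fold change of 0.36 (SE 0.23, limma adjusted p = 0.25). With TPM the value was 1.30 (limma adjusted p = 0.014).

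The next 3 genes, which also passed the threshold, rose. Igfbp3, which binds insulin-like growth factors, was at 22 to 90 in the cancers and 6 to 12 in the controls (log2 fold change 2.02, SE 0.43, limma adjusted p = 0.012). Trp53i13 was at 10 to 20 and 2 to 4 (log2 fold change 2.0, SE 0.28, limma adjusted p = 0.0028), and Chek1, the checkpoint kinase, at 2 to 6 and 0 to 1 (log2 fold change 1.53, SE 0.35, limma adjusted p = 0.015).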

How the data were processed

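RNA-seq of 5 SCJ cancers and 3 control SCJ tissues was analysed. The authors trimmed reads with cutadapt 1.8, aligned them with TopHat2 2.0.13 per the labels' processing notes, and quantified mm10 genes with cuffquant and Cuffnorm 2.2.1. The normalization option and strand setting are not given in the sources used here. The deposited FPKM were rounded to whole numbers (100% of values whole, tolerance 0) and are treated as a score, not as counts. All 23361 genes and 8 columns were read.

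Genes that reached 1 FPKM in 3 or more samples were compared on log2(FPKM + 1), with a pseudocount of 1. The model was fitted in R 4.3.3 with limma 3.58.1, using lmFit and a trended eBayes step, and p-values were adjusted by Benjamini-Hochberg over all 14357 genes, with a threshold of 0.05. The script was tested on simulated data. TPM values were computed by dividing each column by its sum. The alternatives were pseudocount 0.1, other filters, TPM, quantile normalization, median-ratio factors, no trend, a replicate block, and leaving out each sample in turn. Gene overlaps were read from GENCODE M21 exons and promoters from RefSeq GRCm38.p6. Of the other pathway genes, Pidd1 and Tigar were matched by older symbols. Protein sequences were not used here.

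The targets and all lists were chosen with earlier results of these data known. Genes named are the 34 targets, Trp53, Rb1, Cdkn1a and Mdm2, up to 6 other pathway genes past the threshold with the largest absolute change, 1 of which is not reported here, and Rps27. Trp63, Pgc, Pga5, Bhlha15, Krt5, Krt14, Ivl, Alb, Ahsg, Fga, Fgg, Apoh, Pmaip1 and Sfn were named after their values were seen.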

Additional observations from a re-analysis of the deposited data

Results flagged for a closer look

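The levels of 4 targets in the 5 cancers held 1 sample that stood apart, by its gap to the nearest cancer as a share of the whole range on the log2(FPKM + 1) scale. The share was 0.737 for Fas (cancer 5 lowest, at 2), 0.769 for Plk3 (cancer 5 highest, at 10), 0.71 for Btg2 (cancer 5 highest, at 227) and 0.725 for Fdxr (cancer 5 lowest, at 3). The limit for 5 samples is 0.71. In all, 37 sets of cancer values were looked at, the targets with 5 equal values left out. Chance passes about 1 in 20 sets of continuous values, and that rate is not exact for whole numbers with ties, as in Fas and Fdxr. The sample that stood apart was cancer 5 in all 4.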

How the results depend on the processing

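Of the alternative log2 fold changes of the 33 targets, 462 kept direction and side of the threshold, 70 kept their sign but fell below the threshold, 15 kept their sign and newly passed it, and 37 changed sign.

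With TPM, 11 targets were higher and 0 lower, the median was 0.49, and the log2 fold change turned positive for Sesn2 (0.64), Phlda3 (0.76), Zmat3 (0.79), Ei24 (0.26), Fas (0.47), Aen (0.36), Polk (0.10), Xpc (0.86), Apaf1 (0.49), Steap3 (0.39), Fdxr (0.36), Cd82 (0.071), Rps27l (0.0020), Triap1 (0.40), Ppm1d (0.79) and Trp53 (0.86), with Xpc, Ppm1d and Trp53 past the threshold. Rb1 (-0.054) and Cdkn1a (-0.99) fell below the threshold and Mdm2 (1.30) passed it. With quantile normalization 7 targets passed, 4 of them lower, beside 26.4% of all genes, Trp53 was 0.13, and Cdkn1a (-1.52) fell below the threshold. With median-ratio factors Zmat3 was 0.024, Xpc 0.083 and Trp53 0.021. Without the 50 most abundant genes 6 passed, 2 of them lower, the median was 0.0094, Sesn2 was 0.14, Phlda3 0.22, Zmat3 0.27, Xpc 0.33, Apaf1 0.0094, Ppm1d 0.25 and Trp53 0.30, and Rb1 (-0.55) fell below the threshold. With a mean FPKM of at least 5 the median was -0.49, beside -0.21 for all genes that passed this filter. Without cancers 2 and 4 the median was -0.47, Zmat3 was 0.064, Xpc 0.074, and Trp53 (-0.49) and Mdm2 (0.64) passed, but these cancers held the 2 highest Trp53 and 2 lowest Mdm2 levels of the cancers, so no weight is placed on those calls. The cause was not tested.

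With the replicate block, 1 target passed, 0 higher and 1 lower (Plk3), beside 10.7% of all genes, 3 other pathway genes passed, Ddit4 was -0.11, Btg2 -0.24, and Cdkn1a (-2.42) fell below the threshold. The sources used here do not say whether same-numbered cancers and controls are matched. Their deviations from the group means correlated at -0.02, -0.19 and -0.10 across genes, which does not settle it.

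Leaving out 1 sample at a time gave 3 to 15 targets past the threshold, 1 to 4 higher and 2 to 11 lower. Of all genes 2490 to 5252 passed in these fits. Medians of the targets ran from -0.32 to -0.18, and 6 to 11 other pathway genes passed. The ranges were -0.29 to 0.027 for Trp53, -2.21 to -1.64 for Cdkn1a, -0.43 to 0.12 for Phlda3, -0.13 to 0.12 for Xpc, -0.32 to 0.0034 for Sesn2, -0.13 to 0.45 for Btg2, -0.19 to 0.057 for Zmat3 and -0.012 to 0.36 for Ercc5. With 3 controls and whole-number values, low genes are resolved poorly.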

Other observations

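Among the other p53 targets listed, 2 were picked after their values were seen. Pmaip1, the apoptosis activator Noxa, was at 22 in cancer 5 and at 7 to 8 in the other cancers, beside 10 to 19 in the controls. Sfn, which encodes the epithelial protein 14-3-3 sigma, was at 1, 79, 37, 146 and 53 in cancers 1 to 5 and at 125 to 169 in the controls, lowest in cancer 1 and highest in cancer 4 like Perp.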
